A study of Caenorhabditis elegans with 14 samples.

Results

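The genes described here are 97 protein-coding loci of Caenorhabditis elegans at which small RNAs were abundant in strain HC125 and scarce in its hrde-1 mutant derivative, out of 20541 genes in the count table. They were chosen by measured values. A member had a mean of at least 10 CPM (a gene's count per 1000000 counts of its library) over the HC125 libraries, a mean in the hrde-1 mutant libraries of at most 1/8 of that, and both mutant libraries below every HC125 library. Of 19585 protein-coding genes in the table, 7131 reached 10 CPM in HC125, and 115 of these (1.61%) met the numerical rule. A further 18 were then left out by name, being trp-4, sosi-1 and members of large chemoreceptor, F-box, BATH or MATH, irld and clec-209 families. Since the hrde-1;HC125 and HC125 libraries chose the members, their values are given as a description with no test.

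The count table covers 12 libraries of young adult worms, each made from small RNAs and counted over reads of 21 to 26 nt, and the series asks how silencing of an endogenous gene is inherited. They fall into 5 groups, hrde-1;HC125, which combined a hrde-1 mutation with the Psid-1::gfp transgene (n = 2), HC125, with Psid-1::gfp and no hrde-1 mutation (n = 4), the HC83 line without the array at generation F21, labelled de-silenced (n = 2), the same line at generation F6, labelled silenced (n = 2), and N2, the wild type (n = 2). The labels do not say whether libraries of a group came from separate cultures, so the p-values reflect no more than the variation among these libraries. The labels used here name neither the hrde-1 allele nor the genotype of HC83, and each group rests on a single labelled strain.

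HRDE-1 is an Argonaute protein of the germline nucleus. Argonautes hold small RNAs and use them as guides to matching transcripts, and HRDE-1 binds 22G-RNAs, short antisense RNAs that begin with guanosine and are made on target transcripts by RNA-dependent RNA polymerases. With its nuclear RNAi partners it lowers transcription at the target and carries silencing from parent to offspring. The counts used here measure small RNAs assigned to a gene and not its messenger RNA, and the strand setting behind them is not given, so reads from a gene and from an overlapping gene on the opposite strand cannot be told apart.

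The libraries differed in depth, with 6379388 and 3881568 counts in hrde-1;HC125, 451389 to 3741687 in HC125, 3758704 and 514814 at F21, 3203182 and 3716646 at F6, and 470115 and 847628 in N2. A gene with 3 counts lay at 0.47 CPM in the deepest library and at 6.65 CPM in the shallowest. Pairs of libraries correlated on the log CPM scale at 0.981 in hrde-1;HC125, 0.905 to 0.976 in HC125, 0.944 at F21, 0.984 at F6 and 0.887 in N2. Small RNAs at hrde-1 itself stood at 440.5 and 516 CPM in hrde-1;HC125, against 866 to 1266 CPM in HC125. These values describe small RNAs and do not check the mutation.

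Together the members held 0.204% and 0.189% of all counts in hrde-1;HC125, against 2.84%, 2.74%, 2.65% and 2.60% in HC125. They held 2.98% and 2.80% at F21, 2.83% and 2.75% at F6, and 3.27% and 2.76% in N2. The 10 libraries with no labelled hrde-1 mutation thus lay within a narrow band, and both mutant libraries lay far below it. The median member had 5.49 and 4.64 CPM in hrde-1;HC125, against 82.0, 74.9, 57.9 and 58.8 CPM in HC125, 79.5 and 81.6 CPM at F21, 86.2 and 78.8 CPM at F6, and 114.9 and 73.1 CPM in N2. The median member was thus low in the same libraries as the sum over members.

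**Figure D1:**
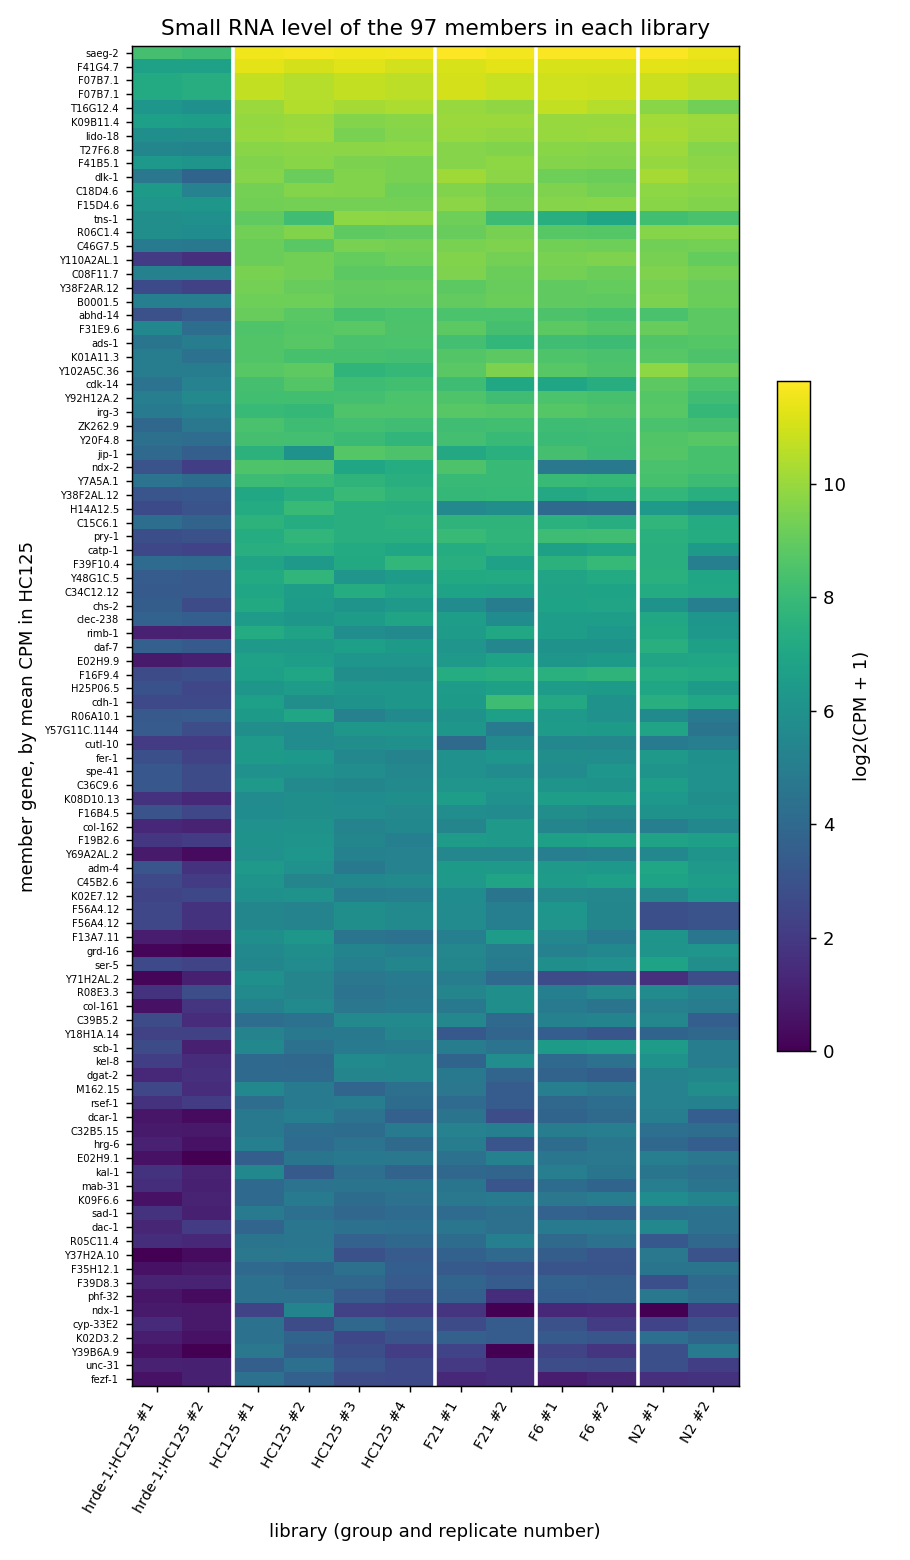
Level of small RNAs at each of the 97 members (rows, ordered by mean CPM in HC125) in each of the 12 libraries (columns, by group), as colour on a log2(CPM + 1) scale. Within nearly every row both hrde-1;HC125 columns are darker than the other 10, and in a few rows the F6 or N2 columns are also darker than HC125. All rows share 1 colour scale.

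Mean levels in HC125 ran from 10.6 to 3074 CPM, with a median of 73.7 CPM. The HC125 mean exceeded the hrde-1;HC125 mean by a median of 13.97-fold, at least 8.02-fold by the rule, and by 16-fold or more at 36 members. At 17 members the mutant libraries held fewer than 10 counts between them, so those ratios are imprecise. Per kilobase of exon the members' median level was 3.07 CPM in hrde-1;HC125 and 75.6 CPM in HC125, with saeg-2 at the top in HC125 (2374 CPM per kb) followed by K09B11.4 (2139 CPM per kb) and F41G4.7 (1742 CPM per kb). The 7034 other protein-coding genes above 10 CPM in HC125 had medians of 30.96 CPM per kb in hrde-1;HC125 and 33.3 CPM per kb in HC125.

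The highest level, per kilobase and in CPM, belonged to saeg-2 (chromosome III, 9240363 to 9242514, plus strand, build WBcel235), a gene named as a suppressor of activated EGL-4, a cGMP-dependent protein kinase. It had 323 and 273 CPM in hrde-1;HC125, against 3035, 3204, 2988 and 3069 CPM in HC125, 3588 and 3108 CPM at F21, 3475 and 3458 CPM at F6, and 3378 and 2792 CPM in N2. Even after the 10.3-fold difference from HC125 the mutant libraries kept more counts at this gene than at any other member. The F6 libraries lay above the HC125 and N2 libraries, and the HC125, F21 and N2 libraries overlapped. F41G4.7 (chromosome X, 16834896 to 16836404, minus strand) followed with 106 CPM in each hrde-1;HC125 library, against 2588, 2101, 2381 and 2057 CPM in HC125, 2216 and 2599 CPM at F21, 2215 and 2182.3 CPM at F6, and 2587 and 2410.3 CPM in N2. Its HC125 mean was 21.5-fold above the mutant mean. The others of the 10 members with the highest CPM in HC125 were both copies of F07B7.1, T16G12.4, K09B11.4, lido-18, T27F6.8, F41B5.1 and dlk-1, with HC125 means of 702 to 1601 CPM and HC125 means 9.24-fold to 37.5-fold above hrde-1;HC125.

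F07B7.1 and F56A4.12 each appear as a pair of gene IDs on chromosome V. The F07B7.1 rows hold identical counts in every library and the F56A4.12 rows nearly identical ones, so each pair may share reads and the members comprise 95 distinct names. Counting 1 copy of each pair, the members held 0.189% and 0.173% of counts in hrde-1;HC125, against 2.43% to 2.66% in HC125.

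Several members act in nerve cells. dlk-1 (chromosome I, 12565800 to 12572801, minus strand) encodes a MAP kinase kinase kinase known for its part in axon regeneration and synapse formation. It had 24.6 and 12.9 CPM in hrde-1;HC125, against 809, 547, 768 and 686 CPM in HC125, 1122 and 866 CPM at F21, 585 and 574 CPM at F6, and 1193 and 937 CPM in N2. rimb-1, a RIM-binding protein of the presynaptic active zone, had 1.10 and 1.29 CPM in hrde-1;HC125, against 151, 110.5, 54.6 and 48.9 CPM in HC125, 91.3 and 128 CPM at F21, 97.4 and 78.0 CPM at F6, and 143 and 77.9 CPM in N2. It showed a 76.4-fold ratio of means between HC125 and hrde-1;HC125, yet HC125, F21, F6 and N2 overlapped. jip-1, a scaffold protein for JNK signalling, had 15.5 and 10.8 CPM in hrde-1;HC125, against 191, 64.8, 417 and 369 CPM in HC125, 141 and 179 CPM at F21, 320.0 and 267 CPM at F6, and 399.9 and 327 CPM in N2. daf-7, the TGF-beta ligand that restrains entry into the dauer larva, had 11.3 and 9.02 CPM in hrde-1;HC125, against 82.0, 82.2, 101 and 86.3 CPM in HC125, 70.5 and 42.7 CPM at F21, 65.6 and 66.5 CPM at F6, and 170.2 and 105 CPM in N2. The daf-7 libraries of F21 and F6 lay below both N2 libraries, but neither difference from N2 passed the test described further on. unc-31, which acts in dense-core vesicle release, lay near the lower limit of the rule at 1.10 and 1.03 CPM in hrde-1;HC125 and 11.1, 19.2, 7.73 and 5.08 CPM in HC125.

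A pair of members belongs to spermatogenesis. fer-1, a ferlin needed for fusion of membranous organelles in sperm, had 6.43 and 3.86 CPM in hrde-1;HC125, against 84.2, 76.7, 44.7 and 38.5 CPM in HC125, 62.5 and 71.9 CPM at F21, 55.9 and 54.9 CPM at F6, and 80.8 and 60.2 CPM in N2. spe-41, a TRP-type calcium channel needed for sperm to fertilize, had 8.15 and 5.67 CPM in hrde-1;HC125, against 62.0, 64.8, 55.2 and 43.6 CPM in HC125, 62.8 and 50.5 CPM at F21, 50.6 and 73.5 CPM at F6, and 68.1 and 62.5 CPM in N2. For both genes every library outside hrde-1;HC125 lay within or close to the HC125 range.

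Metabolic enzymes and transporters formed another group. abhd-14, an alpha/beta hydrolase domain protein, had 6.58 and 9.53 CPM in hrde-1;HC125, against 543, 445, 333 and 349 CPM in HC125, 353 and 349.6 CPM at F21, 361 and 335 CPM at F6, and 347 and 457 CPM in N2. ads-1, which encodes alkylglycerone phosphate synthase of ether lipid synthesis, had 23.04 and 30.9 CPM in hrde-1;HC125 and 337 to 430.0 CPM in HC125. The gene overlaps Y50D7A.1 on the opposite strand, which itself averaged 10.9 CPM in hrde-1;HC125 and 71.5 CPM in HC125. catp-1, a cation-transporting P-type ATPase, averaged 4.49 ± 0.521 CPM in hrde-1;HC125 and 157 ± 25.98 CPM in HC125 (SD, n = 2 and n = 4). chs-2, a chitin synthase, averaged 7.85 ± 3.09 CPM in hrde-1;HC125, 95.8 ± 33.6 CPM in HC125, 41.1 ± 14.1 CPM at F21, 115.5 ± 3.01 CPM at F6 and 48.4 ± 21.8 CPM in N2.

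Other named members act at the cell surface, in the cuticle or in signalling. tns-1, a tensin-like protein of cell adhesions, had 55.3 and 59.3 CPM in hrde-1;HC125, against 489.6, 288, 889 and 871 CPM in HC125, 585 and 276 CPM at F21, 169 and 123 CPM at F6, and 298 and 339 CPM in N2. Its HC125 libraries differed by more than 3-fold among themselves. cdh-1, a cadherin, averaged 5.08 ± 0.0965 CPM in hrde-1;HC125, 74.0 ± 18.9 CPM in HC125 and 184 ± 141 CPM at F21, where the libraries had 84.9 and 284 CPM. cutl-10, a cuticlin-like gene, averaged 3.19 ± 0.142 CPM in hrde-1;HC125, 61.5 ± 12.8 CPM in HC125, 32.3 ± 23.1 CPM at F21, 43.6 ± 1.10 CPM at F6 and 29.8 ± 2.97 CPM in N2. cdk-14, of the cyclin-dependent kinase family, averaged 29.1 ± 10.2 CPM in hrde-1;HC125, 323 ± 52.8 CPM in HC125, 207 ± 109 CPM at F21, 143 ± 30.6 CPM at F6 and 404 ± 66.9 CPM in N2. It overlaps ZC123.1 on the opposite strand, at 292 CPM in hrde-1;HC125 and 384 CPM in HC125. The infection response gene irg-3 averaged 31.3 ± 6.07 CPM in hrde-1;HC125 and 309 ± 75.5 CPM in HC125, and the C-type lectin gene clec-238 averaged 11.3 ± 1.07 CPM in hrde-1;HC125 and 92.3 ± 17.9 CPM in HC125.

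Outside the libraries used for the rule, most members kept a level near that of HC125. At F21 the mean was 1/2 or more of the HC125 mean at 89 members, between 1/8 and 1/2 at 7 and at most 1/8 at 1, against 94.7%, 5.22% and 0.0995% of the 7034 other genes. At F6 the counts were 86, 7 and 4 members, against 92.6%, 7.15% and 0.299% of the other genes. In N2 they were 87, 9 and 1 members, against 97.6%, 2.25% and 0.199% of the other genes. As shares of the members, 91.8% kept 1/2 or more at F21, 88.7% at F6 and 89.7% in N2, so keeping this level was no more frequent among the members than among other genes. The ratios are described and not tested, since the HC125 mean was part of the rule.

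**Figure D2:**
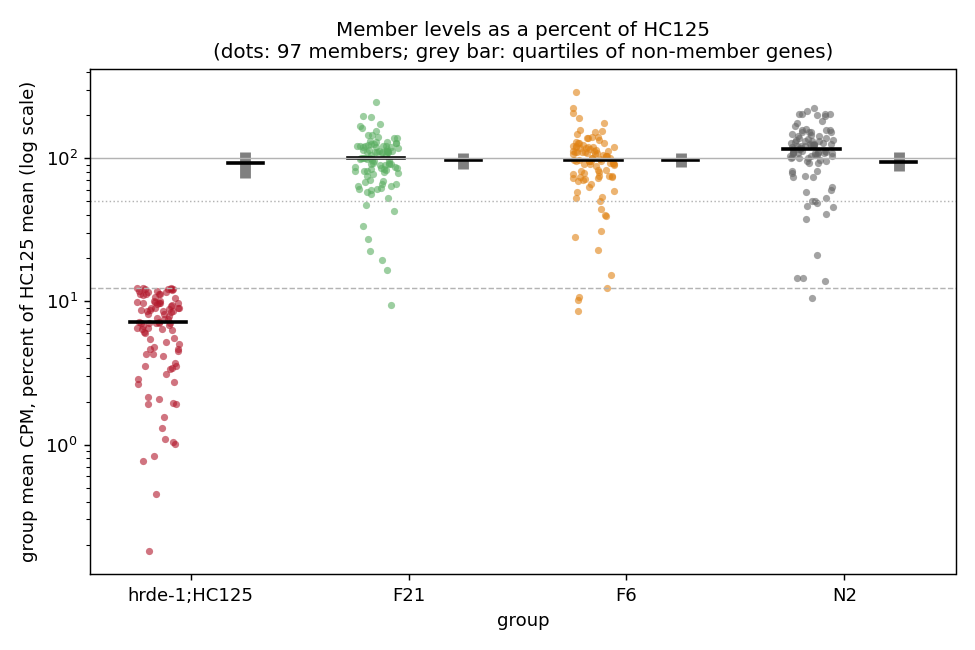
Mean level of each member (dots) in hrde-1;HC125, F21, F6 and N2 as a percentage of its HC125 mean, on a log axis, with the median of the members as a black line and the middle 50% of 7034 other genes as a grey bar. Member medians lie at 7.16% in hrde-1;HC125, 99.7% at F21, 96.7% at F6 and 116% in N2; dashed, dotted and solid lines mark 1/8, 1/2 and the whole of the HC125 mean.

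Both libraries lay above both hrde-1;HC125 libraries at 95 of 97 members at F21, 96 at F6 and 96 in N2, against 32.8%, 37.3% and 29.2% of the other genes. The low mutant values were part of the rule, so these counts describe the position of F21, F6 and N2 and support nothing further. At 71 members at F21, 64 at F6 and 65 in N2 the libraries overlapped the HC125 range, against 85.0%, 80.3% and 83.0% of the other genes.

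The N2 mean was above the HC125 mean at 69 members (71.1%), against 39.4% of the other genes. The N2 libraries differed in this, with a median member level of 130% of the HC125 mean in N2 replicate 1 and 105% in N2 replicate 2. Replicate 1 was above replicate 2 at 72 members (74.2%), against 38.4% of the other genes. The HC125 libraries were also split, since replicates 1 and 2 both lay above replicates 3 and 4 at 45 members (46.4%), against 25.3% of the other genes. What lies behind either split was not tested.

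At 80 members the mean stayed at 1/2 or more of HC125 in F21, F6 and N2 alike, and 17 members were under that level in at least 1 of these groups: 9 in 1 group, 4 in 2 and 4 in all 3. The members low in all 3 were H14A12.5, Y18H1A.14, ndx-1 and fezf-1. Y18H1A.14 averaged 11.1 ± 3.60 CPM at F21, 9.34 ± 1.80 CPM at F6 and 13.5 ± 0.986 CPM in N2 (SD, n = 2 each), against 32.9 ± 7.503 CPM in HC125 (SD, n = 4). ndx-1, a Nudix hydrolase, owed its place to a single library: it had 0.784 and 0.773 CPM in hrde-1;HC125, against 4.43, 39.3, 3.86 and 3.47 CPM in HC125. At F21 ndx-1 had 2.39 CPM and a count of 0, at F6 1.56 and 1.61 CPM, and in N2 a count of 0 and 3.54 CPM. fezf-1, a zinc finger transcription factor gene, had 0.470 and 1.03 CPM in hrde-1;HC125, against 19.9, 11.9, 5.52 and 5.08 CPM in HC125, 1.60 and 1.94 CPM at F21, 0.937 and 1.35 CPM at F6, and 2.13 and 2.36 CPM in N2. These levels lie near that of a few counts in the shallow libraries.

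Y71H2AL.2 (chromosome III, 2686364 to 2689097, plus strand) had low levels in N2 and F6 and higher ones in the other non-mutant groups. It had 0.157 and 1.03 CPM in hrde-1;HC125, against 59.8, 40.2, 24.8 and 26.99 CPM in HC125, 30.6 and 15.5 CPM at F21, 5.62 and 5.92 CPM at F6, and 2.13 and 5.90 CPM in N2. Its differences did not pass the test, with a log2 fold change of 2.52 at F21 over N2 (adjusted p = 0.159, edgeR quasi-likelihood test with Benjamini-Hochberg adjustment) and 2.098 at F21 over F6 (adjusted p = 0.153, same test). In edgeR with no low-count filter both passed (2.57 and 2.105). With only F21 and F6 in the fit, F21 over F6 passed (2.17).

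The members with the highest level relative to HC125 were cdh-1 at F21 (249% of the HC125 mean), scb-1 at F6 (293%) and K09F6.6 in N2 (225%). At F21, cdh-1 was followed by F16F9.4 (197%), C45B2.6 (195%) and Y102A5C.36 (174%). At F6, scb-1 was followed by F16F9.4 (225%), F19B2.6 (206%) and C45B2.6 (190.2%). In N2, K09F6.6 was followed by Y102A5C.36 (214%), C45B2.6 (205%) and adm-4 (205%), which encodes an ADAM-type metalloprotease.

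Libraries of a group often differed at these members. scb-1 had 5.49 and 1.03 CPM in hrde-1;HC125, against 44.3, 20.996, 27.04 and 30.2 CPM in HC125, 30.9 and 21.4 CPM at F21, 86.2 and 93.1 CPM at F6, and 89.3 and 30.7 CPM in N2. Its N2 libraries thus spanned nearly the whole range from HC125 to F6. K09F6.6 had 0.470 and 1.29 CPM in hrde-1;HC125, against 15.5, 28.3, 17.1 and 20.8 CPM in HC125, 25.5 and 27.2 CPM at F21, 24.4 and 30.1 CPM at F6, and 53.2 and 38.9 CPM in N2. Y102A5C.36 had 29.9 CPM in each hrde-1;HC125 library, against 421, 469, 214 and 233 CPM in HC125, 444 and 717 CPM at F21, 422 and 362 CPM at F6, and 899.8 and 533 CPM in N2. For K09F6.6 and Y102A5C.36 both N2 libraries lay above every HC125 library, while F21 or F6 libraries overlapped HC125. Both genes were named for high N2 levels relative to HC125, so the position of N2 follows in part from that choice.

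adm-4 had 7.52 and 2.32 CPM in hrde-1;HC125, against 79.8, 61.2, 26.5 and 36.6 CPM in HC125, 85.7 and 79.6 CPM at F21, 79.6 and 78.8 CPM at F6, and 128 and 81.4 CPM in N2. F19B2.6 had 2.66 and 3.09 CPM in hrde-1;HC125, against 64.2, 67.6, 42.5 and 32.9 CPM in HC125, 92.3 and 81.6 CPM at F21, 104 and 110.0 CPM at F6, and 111 and 101 CPM in N2. At F19B2.6 the 6 libraries of F21, F6 and N2 all lay above the 4 HC125 libraries, and the same held for C45B2.6 and F16F9.4. These genes were named for high levels relative to HC125, so their position follows in part from that choice. How often it occurs among the other members and genes was not counted. C45B2.6 had 5.17 and 3.09 CPM in hrde-1;HC125, against 41.1 to 68.7 CPM in HC125, 81.4 and 117 CPM at F21, 91.5 and 101 CPM at F6, and 114.9 and 93.2 CPM in N2. F16F9.4 had 5.49 and 6.44 CPM in hrde-1;HC125, against 56.8 to 120.5 CPM in HC125, 159 and 173 CPM at F21, 178 and 201 CPM at F6, and 157 and 149 CPM in N2. None of cdh-1, scb-1, K09F6.6, Y102A5C.36, adm-4, F19B2.6, C45B2.6 and F16F9.4 was called in F6 against N2, F21 against N2 or F21 against F6.

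The F21, F6 and N2 libraries took no part in choosing the members and were compared with each other by edgeR's quasi-likelihood test over all 10470 genes that passed the low-count filter, with Benjamini-Hochberg adjustment and a threshold of 0.05. All 97 members passed the filter, which the rule favours through its minimum level in HC125. With only the groups compared in the fit, 95 members passed it for F6 against N2. For F21 against N2 89 did, and for F21 against F6 95 did. F6 and F21 were each set against the same N2 libraries.

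Between the silenced generation F6 and N2, 4 members had more small RNAs at F6, 3 had fewer and 90 were not called. Over all tested genes 0.382% were called higher at F6, 1.05% lower and 1.43% in either direction. The members called higher were both F56A4.12 IDs, T16G12.4 and pry-1, and those called lower were ndx-2, H14A12.5 and R06C1.4. The median log2 fold change was -0.18 over the members and 0.06 over all tested genes, with 28 members positive and 69 negative. Scaled by DESeq2's size factors instead, the split was 4 higher and 5 lower, since daf-7 and cdk-14 were then called lower as well. More members were lower than higher also with DESeq2 (4 higher and 9 lower) and, in edgeR, with no filter (7 and 11) and with only F6 and N2 in the fit (5 and 10). All tested genes leaned the same way. They gave 65 higher and 478 lower of 10470 with DESeq2 and 297 and 886 of 18202 with no filter. With only F6 and N2 in the fit they gave 70 and 484 of 8583. Scaled by library size only, the split was 4 and 4. It was 4 and 3 without HC125 replicate 1 or 3, 4 and 6 without replicate 2, and 4 and 8 without replicate 4. Each of these counts of higher members includes both F56A4.12 IDs, whose counts are nearly identical. With that pair counted once, the main split was even, and none of the settings just listed had more members higher than lower. The size of the split thus depended on the setting. The number of called members was 12 without HC125 replicate 4, 3 without F6 replicate 1, 4 without F6 replicate 2 and 2 without N2 replicate 2, the last being H14A12.5 and daf-7.

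**Figure D3:**
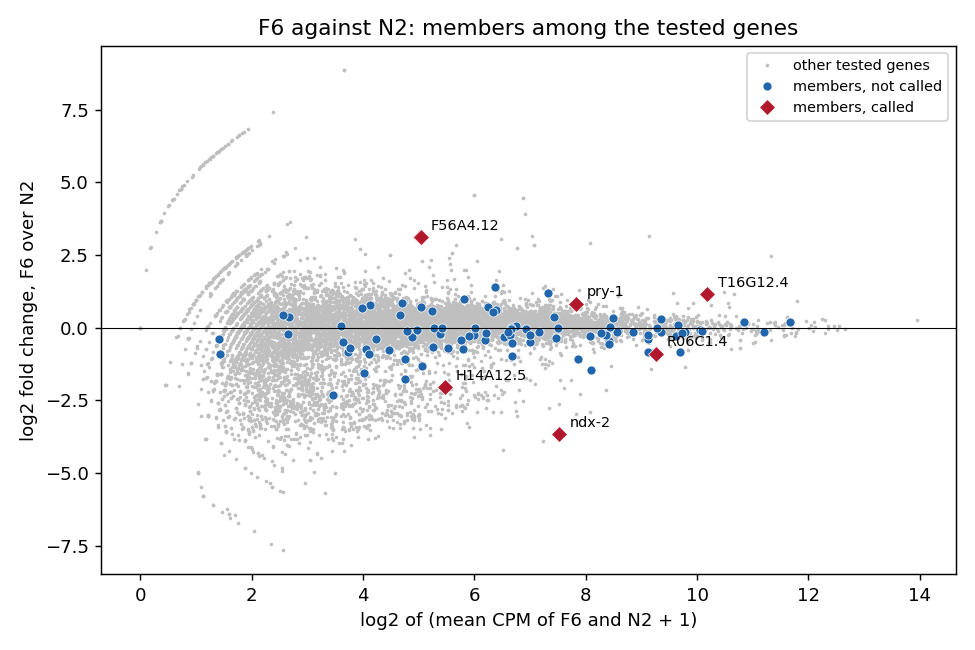
Log2 fold change of F6 over N2 against mean level, as log2(mean CPM + 1), for all tested genes (grey) and members (coloured), with the called members as red diamonds and named. The 7 called members stand at -3.66 to 3.11, while the other members lie around a median slightly below 0.

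ndx-2 (chromosome V, 2662964 to 2665003, minus strand), which encodes a Nudix hydrolase, showed the largest fall. It had 25.6 and 26.4 CPM at F6, against 345 and 335 CPM in N2, a log2 fold change of -3.66 ± 0.57 (SE), with an adjusted p of 0.0217 (edgeR quasi-likelihood test with Benjamini-Hochberg adjustment). The levels were 7.05 and 3.61 CPM in hrde-1;HC125, against 374, 361, 126 and 158 CPM in HC125, and 366 and 249 CPM at F21. F6 thus lay 12.7-fold below N2 in the fit and above both mutant libraries, while F21, HC125 and N2 overlapped. The call was lost without either F6 library or N2 replicate 2, with adjusted p of 0.194 (F6 replicate 1 left out), 0.242 (F6 replicate 2) and 0.186 (N2 replicate 2) in the same edgeR test, at log2 fold changes of -3.73 to -3.63.

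H14A12.5 (chromosome III, 7467574 to 7469080, minus strand) had 15.6 and 16.4 CPM at F6, against 80.8 and 60.2 CPM in N2. Its log2 fold change was -2.05 ± 0.28 (SE), with an adjusted p of 0.000622 (edgeR quasi-likelihood test with Benjamini-Hochberg adjustment). It stayed called under each of the 18 alternatives run for this comparison. The gene had 5.33 and 7.21 CPM in hrde-1;HC125, against 153, 257, 174 and 163 CPM in HC125, and 45.5 and 56.3 CPM at F21, so the groups ordered as hrde-1;HC125, F6, F21, N2 and HC125 with no overlap. The gene overlaps fum-1, the mitochondrial fumarase, on the opposite strand. fum-1 averaged 51.7 ± 9.50 CPM at F6 and 34.5 ± 9.64 CPM in N2 (SD, n = 2 each), and so did not share the low F6 level.

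R06C1.4 (chromosome I, 11930765 to 11931757, plus strand) had 421 and 419 CPM at F6, against 806 and 805 CPM in N2, a log2 fold change of -0.90 ± 0.18 (SE), with an adjusted p of 0.0217 (edgeR quasi-likelihood test with Benjamini-Hochberg adjustment). It had 56.3 and 53.3 CPM in hrde-1;HC125, against 625, 750.4, 477 and 500.0 CPM in HC125, and 526 and 660.4 CPM at F21. The F6 libraries lay below every HC125 library and the N2 libraries above each of them. The call was lost without F6 replicate 1 (adjusted p = 0.202, same test), F6 replicate 2 (0.242) or N2 replicate 2 (0.0786), at log2 fold changes of -0.95 to -0.89.

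T16G12.4 (chromosome III, 10057818 to 10058684, plus strand) had 1718 and 1442 CPM at F6, against 842 and 628 CPM in N2. The log2 fold change was 1.14 ± 0.19 (SE), with an adjusted p of 0.00523 (edgeR quasi-likelihood test with Benjamini-Hochberg adjustment). It had 73.7 and 60.5 CPM in hrde-1;HC125, against 1048, 1376, 1185 and 1319.7 CPM in HC125, and 1018 and 907 CPM at F21, so F6 lay above and N2 below every HC125 library. The call was lost without F6 replicate 1 (1.02, adjusted p = 0.113, same test) or N2 replicate 2 (0.90, adjusted p = 0.0899).

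pry-1 (chromosome I, 14172828 to 14179360, minus strand) encodes an Axin homologue that restrains Wnt signalling. It had 282 and 289 CPM at F6, against 179 and 156 CPM in N2, a log2 fold change of 0.82 ± 0.18 (SE), with an adjusted p of 0.0243 (edgeR quasi-likelihood test with Benjamini-Hochberg adjustment). It had 6.11 and 6.70 CPM in hrde-1;HC125, against 159.5, 220.0, 170.0 and 171 CPM in HC125, and 250.1 and 214 CPM at F21. The F6 libraries lay above every other library of the gene. The call was lost without hrde-1;HC125 replicate 2 (0.79, adjusted p = 0.0524, same test), F6 replicate 1 (0.85, 0.194), F6 replicate 2 (0.78, 0.246) or N2 replicate 2 (0.67, 0.326).

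F56A4.12 stood lower in N2 than at F6. The ID at 2476905 to 2481346 on chromosome V (minus strand) had 71.5 and 41.4 CPM at F6, against 6.38 and 7.08 CPM in N2, values that rest on a few counts per N2 library. The log2 fold change was 3.10 ± 0.49 (SE), with an adjusted p of 0.00323 (edgeR quasi-likelihood test with Benjamini-Hochberg adjustment). The near-identical ID at 2368944 to 2373385 gave 3.11 ± 0.49 (adjusted p = 0.00352, same test), and the pair counts as 1 observation. Levels were 4.70 and 2.32 CPM in hrde-1;HC125, against 42.1, 38.3, 57.9 and 47.6 CPM in HC125, and 51.3 and 33.02 CPM at F21, so N2 lay next to the hrde-1 mutant and far from the other groups. Without N2 replicate 2 the call was lost (3.13 and 3.14, adjusted p = 0.160 and 0.165, same test).

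**Figure D4:**
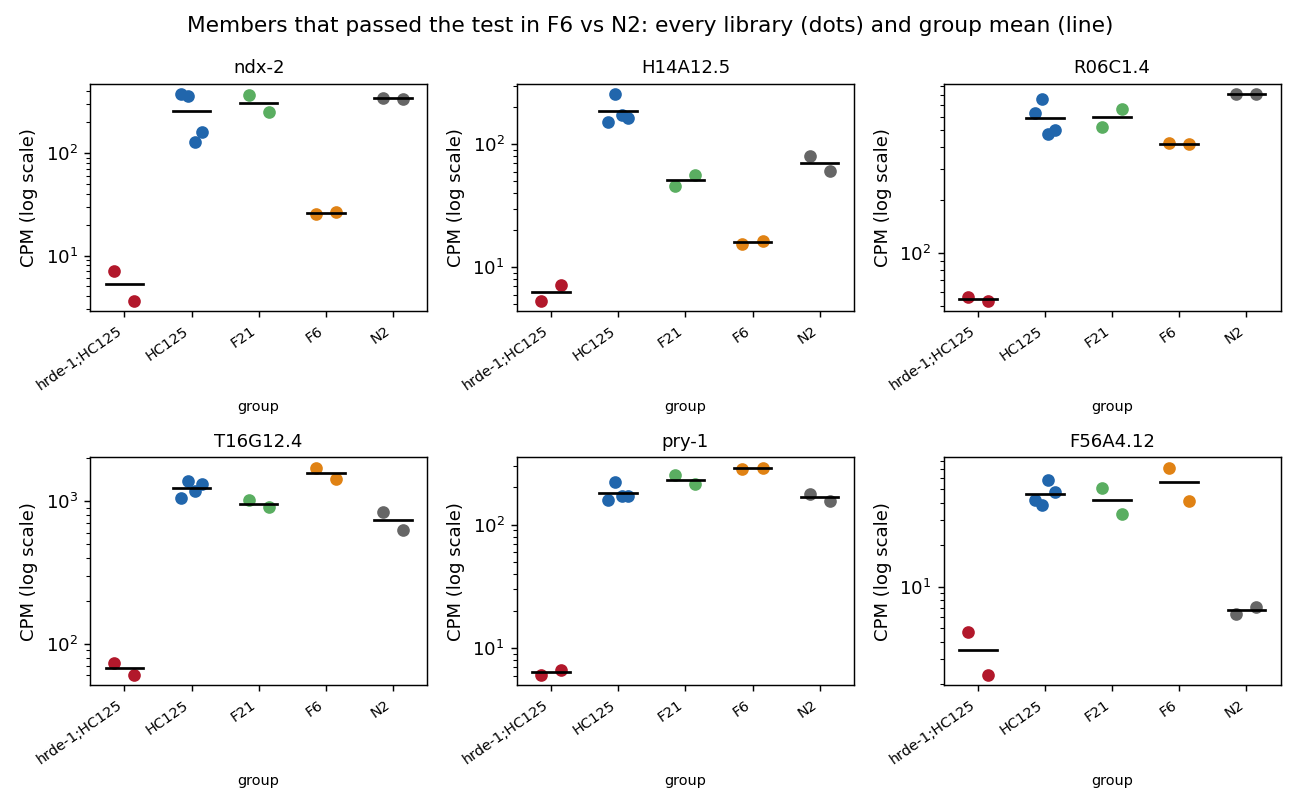
CPM per library (points, log axis) of 6 called members in hrde-1;HC125, HC125, F21, F6 and N2, with 1 panel per gene and a line at each group's mean. ndx-2 and H14A12.5 are low at F6, F56A4.12 is low in N2, and all 6 are lowest in hrde-1;HC125.

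Between the de-silenced generation F21 and N2, 2 members were called, both IDs of F56A4.12, and both were higher at F21. Over all tested genes 0.115% were called higher at F21, 0.0860% lower and 0.201% in either direction. F56A4.12 had 51.3 and 33.02 CPM at F21, against 6.38 and 7.08 CPM in N2, with log2 fold changes of 2.75 ± 0.51 and 2.75 ± 0.52 (SE), with adjusted p of 0.0332 and 0.0368 (edgeR quasi-likelihood test with Benjamini-Hochberg adjustment). The call was lost without HC125 replicate 1 (2.72, adjusted p = 0.0670 and 0.0709, same test), F21 replicate 1 (2.29, 0.446 and 0.452), N2 replicate 1 (2.73, 0.0627 and 0.0677) or N2 replicate 2 (2.79, 0.362 and 0.368). No member was called lower at F21, although 12 had an unadjusted p under 0.05 in that direction. In the other direction 5 members had one, and over all 10470 tested genes 1489 had one in either direction (same edgeR test). DESeq2 called daf-7 lower, and edgeR called 5 lower with no filter and 1 with only F21 and N2 in the fit. Without N2 replicate 2 the called members were instead daf-7 and ser-5, a serotonin receptor gene, both lower at F21 (log2 fold changes of -1.51 and -1.63, both at an adjusted p of 0.0283 in the same edgeR test). The median log2 fold change was -0.13 over the members and 0.02 over all tested genes.

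Between F21 and F6, 1 member was called, H14A12.5, which was higher at F21. Over all tested genes 0.0573% were called higher at F21, 0.0860% lower and 0.143% in either direction. H14A12.5 had 45.5 and 56.3 CPM at F21, against 15.6 and 16.4 CPM at F6, a log2 fold change of 1.57 ± 0.26 (SE), with an adjusted p of 0.0176 (edgeR quasi-likelihood test with Benjamini-Hochberg adjustment). The call was lost when F21 replicate 1 (1.74, adjusted p = 0.160, same test), F21 replicate 2 (1.47, 0.0688), F6 replicate 1 (1.55, 0.273) or F6 replicate 2 (1.61, 0.320) was left out. ndx-2 had 366 and 249 CPM at F21, against 25.6 and 26.4 CPM at F6, a log2 fold change of 3.56 that missed the threshold (adjusted p = 0.0980, same edgeR test) and passed it in DESeq2. In edgeR it passed with no filter (3.55), with only F21 and F6 in the fit (3.60) and without HC125 replicate 3 (3.57). No member was called lower at F21, and DESeq2 called none lower, although 5 had an unadjusted p under 0.05 in that direction. In the other direction 7 members had one, and over all 10470 tested genes 290 had one in either direction (same edgeR test). With other edgeR settings members were called lower, namely chs-2, jip-1, scb-1 and T16G12.4 both with no filter and with only F21 and F6 in the fit. The median log2 fold change was 0.04 over the members and -0.01 over all tested genes.

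The members were spread over all 6 chromosomes, with 20 on I, 7 on II, 16 on III, 16 on IV, 24 on V and 14 on X. The X chromosome held 14.4% of the members and 6.08% of the other protein-coding genes above 10 CPM in HC125, and chromosome II held 7.22% and 18.7%. A midpoint within 1/4 of a chromosome's annotated length from either end was found for 72 members (74.2%) and for 42.1% of the other genes. Members had a median exonic length of 1216 bp and a median of 5 exons, against 1473.5 bp and 6 exons among the other genes. A gene-class name was carried by 41.2% of the members, against 63.4% of the other genes. The 18 genes left out by name carry such names and count among the other genes, so the name filter itself lowered the members' share. It may also bear on the other contrasts of this paragraph. A protein-coding gene or pseudogene overlapped 27 members (27.8%) and 30.6% of the other genes, and on the opposite strand 20 members (20.6%) and 24.9% of the other genes. T27F6.8 is an example, since the opposite-strand gene K11D2.1 averaged 415 ± 43.8 CPM in hrde-1;HC125 and 114.9 ± 13.6 CPM in HC125 (SD, n = 2 and n = 4), the reverse of T27F6.8 at 40.8 ± 1.65 CPM in hrde-1;HC125 and 856 ± 22.2 CPM in HC125.

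A few members lay close together. Within 20000 bp of each other there were 7 pairs, of which E02H9.9 and E02H9.1 on chromosome III lay 183 bp apart on opposite strands. E02H9.9 had 0.784 and 1.03 CPM in hrde-1;HC125, against 106, 97.7, 73.4 and 71.4 CPM in HC125. E02H9.1 had 3 counts over both hrde-1;HC125 libraries and 11.1, 22.8, 26.5 and 25.1 CPM in HC125. spe-41, K01A11.3 and C34C12.12 formed a run of 3 members on chromosome III, with gaps of 2805 and 580 bp. K01A11.3 averaged 25.8 ± 6.57 CPM in hrde-1;HC125 and 338 ± 31.5 CPM in HC125, and C34C12.12 averaged 9.004 ± 0.346 CPM in hrde-1;HC125 and 125 ± 26.4 CPM in HC125. cutl-10 and H25P06.5 lay 9046 bp apart on chromosome I. daf-7 and dac-1, a Dachshund-type transcription factor gene, lay 2371 bp apart. grd-16, a hedgehog-related gene, lay 1938 bp from Y69A2AL.2 on chromosome IV, and had 1 count over both hrde-1;HC125 libraries and 44.3, 58.4, 38.6 and 32.9 CPM in HC125. ndx-2 and the kelch-repeat gene kel-8 lay 6451 bp apart, with W02G9.4 between them and W02G9.3 inside the kel-8 span on the same strand. W02G9.3 averaged 70.3 ± 3.27 CPM in hrde-1;HC125 and 57.0 ± 6.89 CPM in HC125 (SD, n = 2 and n = 4). W02G9.4 averaged 0.986 ± 0.0636 CPM in hrde-1;HC125 and 3.10 ± 0.617 CPM in HC125.

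Genes next to members also had lower levels in the mutant than in HC125 at the median. Among the genes flanking members, 87 that were not members had at least 10 CPM in HC125, and their hrde-1;HC125 level had a median of 80.6% of the HC125 level, against 92.2% over all 7280 non-member genes at that level. At 1/8 or less stood 1 flanking gene, against 23 of all 7280 non-member genes. Leaving out the members nearly empties that class, so its count carries no weight. Of the flanking genes, 25 (28.7%) were under 1/2, against 11.3% of all non-member genes. Within 2-fold were 57 (65.5%), against 85.4% of all non-member genes. These ratios use libraries of the rule and carry no test.

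Of the gene lists for the pathway, none of the 12 nuclear RNAi factors, the 16 amplification factors and the 5 known nuclear RNAi targets was a member or was called in F6 against N2, F21 against N2 or F21 against F6, though sosi-1 and bath-45 among the known targets were barred from membership by name. The nuclear RNAi factors, among them nrde-2, stood at a median of 97.04% of the HC125 level in hrde-1;HC125 and the amplification factors at 88.8%. The known targets stood at 23.7%, with a summed level of 8728 to 9053 CPM in hrde-1;HC125, against 14252 to 15324 CPM in HC125. Among 19 sperm genes, 14 were tested, 2 were members (fer-1 and spe-41) and none was called. The list's median log2 fold change was -2.07 at F6 over N2, while fer-1 had -0.27 and spe-41 had -0.01. The summed sperm gene level was 159 to 201 CPM in hrde-1;HC125, 229 to 403 CPM in HC125, 278 to 291 CPM at F21, 236 to 260 CPM at F6 and 274 to 440.1 CPM in N2. Among 31 major sperm protein genes none was a member, and msp-38 (-2.97, adjusted p = 0.0229, edgeR quasi-likelihood test with Benjamini-Hochberg adjustment) and msp-152 (-2.52, 0.0342) were called lower at F6 than in N2. The median log2 fold change of that list was -2.15 at F6 over N2. Its summed level was 286 to 304 CPM at F6, but differed widely within N2 (574 to 1899 CPM) and within HC125 (425 to 1371 CPM). Of 12 neuron genes, unc-31 was the sole member, and no member came from the germline and oocyte, intestine, muscle or hypodermis lists. The neuron list's summed level was 287 to 289 CPM in hrde-1;HC125, against 67.3 to 79.8 CPM in HC125. Its median gene above 10 CPM in HC125 stood at 94.2%. The germline and oocyte list was also higher in hrde-1;HC125 (4817 to 5315 against 3775 to 4439 CPM). So was the muscle list (1247 to 2561 against 912 to 1173 CPM). The intestine (1064 to 1434 against 1200 to 2218 CPM) and hypodermis lists (36.2 to 51.0 against 42.9 to 66.5 CPM) overlapped HC125.

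The limits of the rule cut through a continuous range. Just inside the 1/8 limit, C36C9.6, M162.15 and R06A10.1 stood at 12.47%, 12.46% and 12.43% of their HC125 means in hrde-1;HC125. Just outside it gcy-23, a receptor guanylate cyclase, stood at 12.7%, C30F2.2 at 12.8% and E01G4.5 at 13.1%. At the lower limit on level, fezf-1, unc-31 and Y39B6A.9 entered with HC125 means of 10.6, 10.8 and 10.99 CPM, while F56A4.3, Y69H2.10 and F21D9.1 missed it at 9.35, 9.28 and 8.90 CPM.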

How the data were processed

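The authors deposited 1 table of raw counts of 21 to 26 nt reads per gene for 12 libraries described as 5'-independent; 2 further HC125 libraries, described as 5'-dependent, were not analysed here. Per the labels, young adults were collected after timed egg laying and RNA was treated with a 5' polyphosphatase. The tools named in the submitters' processing notes are Bowtie2 and HTSeq. Not given in the sources used here were tool versions, the genome build, the strand setting and the handling of multiply matching reads. A library's total is therefore its counts at genes, not its sequencing depth, and floors of 3 counts cover counting error only.

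Names, biotypes and coordinates came by gene ID from Ensembl release 115 (WBcel235), which held 20194 of the 20541 IDs and not the other 347. The authors' counts may rest on another build. CPM was computed as count times 1000000 over the column total, with no further scaling. Tests used R 4.3.3 and edgeR 4.0.16: filterByExpr (minimum count 10, minimum total 15), TMM scaling and the two-sided robust quasi-likelihood F test over all 12 libraries in 5 groups, with Benjamini-Hochberg adjustment over 10470 genes. Standard errors were derived from the F statistic. Alternatives were other scaling, DESeq2 1.42.0, no filter, a replicate block, only the groups compared and leaving out each library.

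The members, lists and comparisons were chosen with earlier results of these data known. Named members were the 10 most abundant in HC125, called members, the 20 most abundant with gene-class names, the 4 highest and 4 lowest relative to HC125 in F21, F6 and N2, and those at the limits of the rule; others named with their neighbours, with their low level, or for a call by another tool were chosen after their values were seen. A promoter motif search was planned, and no sequence was used here.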

Additional observations from a re-analysis of the deposited data

Results flagged for a closer look

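Among 43 named members, each checked for an outlying library among the 4 of HC125, 1 stood out, and chance alone flags about 5% of such groups. ndx-1 had 39.3 CPM in HC125 replicate 2, against 3.47 to 4.43 CPM in the other HC125 libraries. Its HC125 mean of 12.8 CPM and its membership rest on that library.

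H14A12.5 differed between the non-array generations in its distance from N2. The log2 fold change of F21 over F6, which is the difference between their effects against N2, was 1.57 (adjusted p = 0.0176, edgeR quasi-likelihood test with Benjamini-Hochberg adjustment), with both F21 libraries above both F6 libraries.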

How the results depend on the processing

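For F6 against N2 the number of called members moved from 7 to 13 with DESeq2, 18 with no filter on low counts, 14 with the replicate block and 15 with only the groups compared (4 higher and 9 lower, 7 and 11, 5 and 9, 5 and 10), and to between 2 and 12 when a library was left out. All genes called moved from 150 to 543, 1183, 842 and 554 under the same settings, and to between 35 and 586. For F21 against N2, 9 members were called with no filter, and 0 to 2 with a library left out; all genes called were 94 (DESeq2), 662 (no filter), 172 (replicate block) and 37 (only the groups compared), and 9 to 107 with a library left out. For F21 against F6, members called were 2, 9, 3 and 9 and all genes 39, 140, 42 and 97 under these 4 settings, with 0 to 2 members and 6 to 37 genes when a library was left out. Deviations of same-numbered libraries correlated at -0.254 to 0.312. Libraries with different numbers were not compared, so this check cannot show whether libraries were paired or shared a batch. The block is given here only. With the block, ndx-2 was also called higher (3.53) and chs-2 lower (-1.53) at F21 than at F6. These counts rest on unlike numbers of tested genes. The main fit, DESeq2 and the block tested 10470 genes, and the fit with no filter tested 18202. With only the groups compared, F6 against N2 tested 8583 genes and 95 members, and F21 against N2 6659 genes and 89 members. F21 against F6 then tested 9454 genes and 95 members. Which change in each setting moved the counts was not tested.

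The fold change of ndx-2 at F21 over N2, -0.10 and not called, ran from -0.45 to 0.15 when a library was left out, and was 0.15 without F21 replicate 2. Members at 1/2 or more of HC125 numbered 76 to 91 at F21, 83 to 87 at F6 and 81 to 88 in N2 with a library left out. The rule gave 244 members at a limit of 1/4, 36 at 1/16 and 92 to 113 with a library left out. Depth limits the lowest members: 3 counts reach 6.65 CPM in the shallowest library.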
